A study of Mus musculus with 8 samples.

Results

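Transcripts of TGF-β and BMP signaling were followed in differentiated adipocytes after silencing of Erk3. The genes were chosen by symbol from the raw count table: symbols that begin with Tgfb, Bmpr, Acvr or Inhb, the numbered Bmp, Gdf and Smad genes, and Bambi, Nog, Fst and Grem1, without Gdf15. The choice held 35 of the 18088 genes counted, and all 35 passed the filter on low counts. By role they were 8 ligands or ligand subunits, 12 receptors and co-receptors, 7 SMADs, 4 antagonists and 4 genes related by name. Of 53 symbols for which a role had been written down, 18 were not analysed here, among them Bmp2, Bmp4, Bmp7, Inhbe, Bmpr1b and Smad9.

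The cells were mouse 3T3-L1, a fibroblast line whose cells fill with lipid and become adipocyte-like when differentiated in a dish. They were transfected with siRNA targeting Erk3 (siErk3, 4 libraries) or with a nontargeting siRNA (siNTC, 4 libraries), and the comparison asks which transcripts differ once Erk3 is silenced. By their labels both groups are wild type, and both went through detachment with Accutase, siRNA at 1.25 nM per square centimeter on Matrigel-coated plates and 48 h of culture. All libraries thus model adipocytes by a cultured line, and since no source tells whether replicates were independent cultures, p-values cover the spread among these libraries alone.

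Ligands of the TGF-β family are secreted dimers that bring together type II and type I receptor kinases at the cell surface. The type I receptor phosphorylates receptor-regulated SMADs, which join SMAD4 and enter the nucleus. TGF-β and activin act mainly through SMAD2 and SMAD3, and BMPs and several GDFs through SMAD1, SMAD5 and SMAD9. In the adipocyte lineage, TGF-β is known to hold back differentiation, while BMPs promote commitment of precursors to fat cells.

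Mapk6, the gene that encodes ERK3, stood between 558 and 599 CPM (counts scaled to library size with TMM factors) in the siNTC libraries and between 63.5 and 74.8 CPM in the siErk3 libraries, a log2 fold change of -3.06 (SE 0.06, edgeR adjusted p = 2.09e-22). Libraries held 9854522 to 9943572 counts, of which the 35 genes took 10402 to 12060. All 10 adipocyte markers were counted, and together they made up 2.85% to 3.13% of counts in siNTC libraries and 1.802% to 1.92% in siErk3 libraries, with 9 lower and 1 higher. Of 10 preadipocyte marker symbols 7 were counted and made up 0.0883% to 0.0967% and 0.110% to 0.114% of counts. Pref1, among those not counted, is another name of Dlk1, which was counted. Of the 7, 5 were lower, and Ly6a was higher by 6.46 on the log2 scale, from a mean of 3.47 to 307 CPM. The log2 fold changes of the others were negative, so the higher summed share came from Ly6a. Markers of macrophages and leukocytes (3 of 8 counted: Csf1r, Cd68 and Cd14) made up 0.000964% to 0.0014% and 0.00208% to 0.00254% of counts, with 2 higher and 1 not called. Of 7 endothelial markers Pecam1 alone was counted, and it was not called (log2 0.55, edgeR adjusted p = 0.130). Cd68, 1 of the 2 higher leukocyte markers, stood at 0.522 to 1.15 CPM in siNTC and 1.46 to 2.17 CPM in siErk3 libraries. Pecam1 stood at 0.517 to 1.26 CPM and 1.17 to 1.58 CPM. Genes short of 1 CPM in 4 libraries had been removed before deposit, so Cd68 and Pecam1 were counted only with the help of siErk3 libraries. Fewer cells of a type and less RNA per cell cannot be told apart in these bulk libraries, and the part of the marker shifts in the results that follow was not tested.

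Of the 35 genes, 11 were higher and 8 lower after siErk3 at an edgeR adjusted p under 0.05, and 16 were not called. The called share was 54.3%, beside 48.7% of the 17972 genes tested. The higher share was 31.4%, beside 24.9% of all genes, and the lower share 22.9%, beside 23.8%. In 15 of the 35 genes (42.9%) no siErk3 library overlapped a siNTC library, beside 43.2% of all genes. A called change of at least 2-fold was found for Gdf11 and Tgfb3, the 2 genes at that size, beside 6.38% of all genes. Since the deposited table lists genes at 1 CPM or more in at least 4 libraries, 4 of the 35 genes are in it only with the help of siErk3 libraries: Gdf11 reached that level in 2 of 4 siNTC libraries, Inhba and Fst in 1 and Grem1 in 3. Without these, 9 genes were higher and 8 lower. The shares lay close to those of all genes, so the counts as such do not set the family apart. The median log2 fold change of the 35 genes was 0.04, beside 0.00095 over all genes, and the median absolute value 0.26, beside 0.25. With upper-quartile factors 9 of the 35 genes were higher and 8 lower (3556 and 5394 of all genes), and with library sizes only 13 and 7 (5849 and 3139 of all genes), against 4470 higher and 4275 lower of all genes with TMM factors.

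**Figure D1:**
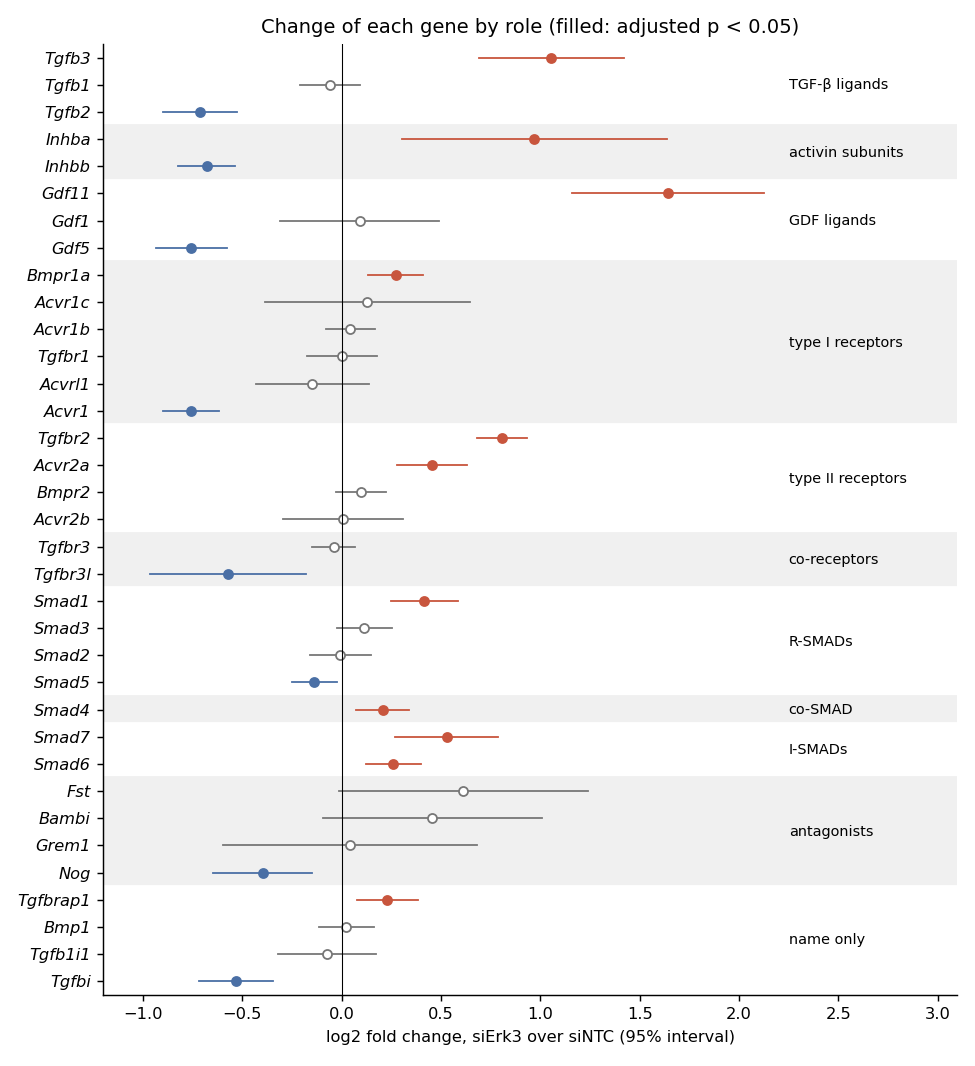
Change of the 35 genes as log2 of siErk3 over siNTC, with 95% intervals derived from the edgeR F statistic, grouped by role. Filled points have an adjusted p under 0.05, red higher and blue lower. The ligands spread from -0.76 for Gdf5 to 1.64 for Gdf11, while the 2 inhibitory SMADs both lie to the right of 0.

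The plot of fold changes by role shows that within most roles some genes were higher and others lower. The 8 ligand genes were split into 3 higher, 3 lower and 2 not called. Among the 12 receptors and co-receptors 3 were higher, 2 lower and 7 not called. Of the 7 SMADs 4 were higher, 1 lower and 2 not called, and of the 4 antagonists 1 was lower and 3 not called. Called shares were 71.4% for SMADs and 41.7% for receptors, with 6 of 8 ligand genes called, beside 48.7% of all genes. Among SMADs 57.1% were higher and 14.3% lower, and among ligands 37.5% each, beside 24.9% and 23.8%. These groups are small, and the contrasts were not tested. The Smad4, Smad5, Inhba and Tgfbr3l calls were lost under some alternatives. Gdf11 and Inhba reached 1 CPM in 4 libraries only with the help of siErk3 libraries.

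Upstream sequence is given for 4 of the genes with called changes of at least 0.5 on the log2 scale: Gdf11, with the largest change of the 35, Tgfbr2, with the smallest adjusted p, and the activin subunit genes Inhba and Inhbb, called in opposite directions. The Inhba call rests on few counts and was lost under some alternatives. Gdf11 and Inhba are in the table only with the help of siErk3 libraries. RefSeq (GRCm38.p6) held such windows for 23 of the 35 genes, 29 windows in all. Each run is the 250 bases before the annotated start, on the gene's strand, with CCAAT boxes (CCAAT, or ATTGG on the other strand) and TATA boxes (TATAAA) in capitals. The windows are chr10:128891719-128891968 (minus strand) for Gdf11, chr9:116175364-116175613 (minus) for Tgfbr2, chr13:16011601-16011850 (plus) for Inhba and chr1:119422249-119422498 (minus) for Inhbb.
Gdf11: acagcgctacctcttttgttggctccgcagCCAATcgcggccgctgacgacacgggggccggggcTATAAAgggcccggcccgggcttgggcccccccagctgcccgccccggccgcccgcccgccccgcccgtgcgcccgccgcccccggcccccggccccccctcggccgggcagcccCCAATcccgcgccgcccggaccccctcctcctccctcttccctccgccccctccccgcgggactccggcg
Tgfbr2: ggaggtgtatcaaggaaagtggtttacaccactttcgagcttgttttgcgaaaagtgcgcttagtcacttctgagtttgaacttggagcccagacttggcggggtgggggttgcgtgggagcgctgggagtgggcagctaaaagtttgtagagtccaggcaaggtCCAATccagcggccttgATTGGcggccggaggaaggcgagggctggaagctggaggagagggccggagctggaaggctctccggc
Inhba: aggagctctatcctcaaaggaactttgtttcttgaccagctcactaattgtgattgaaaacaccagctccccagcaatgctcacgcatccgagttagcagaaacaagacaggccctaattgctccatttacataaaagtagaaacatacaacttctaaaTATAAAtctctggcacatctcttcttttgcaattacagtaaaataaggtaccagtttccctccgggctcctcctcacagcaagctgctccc
Inhbb: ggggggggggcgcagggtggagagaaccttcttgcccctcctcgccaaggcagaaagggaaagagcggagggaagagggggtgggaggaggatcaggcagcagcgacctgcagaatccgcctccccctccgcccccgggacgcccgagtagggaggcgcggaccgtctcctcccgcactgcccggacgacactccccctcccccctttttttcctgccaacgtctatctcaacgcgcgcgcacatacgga
In the Gdf11 window a CCAAT box began 220 and another 70 bases before the start, and a TATAAA 185 bases before it. In the Tgfbr2 window the 2 CCAAT boxes, on opposite strands, began 85 and 68 bases before the start, and the Inhba window held a TATAAA 91 bases before it. The Inhbb window, with a GC content of 68.0%, held none of the motifs searched.

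Both strands of all 32851 windows were searched for 6 motifs. CCAAT was found in 31.0% of the 29 windows and in 33.8% of all windows, and TATAAA in 10.3% and 12.4%. The GC-rich motif GGCGCC, a sequence that BMP-activated SMADs can bind, was found in 27.6% of the 29 windows (8 windows, of Bmpr1a, Bmpr2, Gdf1, Grem1, Smad5, Tgfbi, Tgfbr1 and Tgfbrap1) and in 9.59% of all. The windows compared were not matched for GC content, and the 29 windows come from 23 genes, so this contrast is not a test. Of these 8 genes Bmpr1a and Tgfbrap1 were higher, Smad5 and Tgfbi lower and 4 not called. The SMAD-binding palindrome GTCTAGAC (0.167% of all windows) and the forkhead motif GTAAACA (3.17%) were found in 0 of the 29 windows, and the E-box CACGTG (6.02%) in 2, of Acvr1b and Tgfb2. A match describes the letters of a window and not a bound site.

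The 3 TGF-β ligand genes went in different directions. Tgfb3, on chromosome 12 (86056745-86079041, mm10), gave 18, 34, 33 and 30 counts in siNTC replicates 1 to 4 and 68, 71, 54 and 62 counts in siErk3 replicates 1 to 4. Every siErk3 library lay above every siNTC library. Tgfb3 rose by 1.06 on the log2 scale, from 2.997 ± 0.764 to 6.24 ± 0.748 CPM (SD, n = 4 each; SE of the log2 fold change 0.18, edgeR adjusted p = 2.80e-05). Tgfb2, on chromosome 1 (186622792-186705989), stood at 23.5, 21.1, 21.7 and 23.7 CPM in the siNTC replicates and at 13.9, 15.7, 12.3 and 13.0 CPM in the siErk3 replicates. The groups did not overlap, and Tgfb2 fell by 0.71 on the log2 scale (SE 0.09, edgeR adjusted p = 5.08e-07).

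Tgfb1, the most abundant TGF-β ligand gene per kb of exon, stood at 38.7, 32.3, 33.6 and 39.6 CPM in the siNTC replicates and at 33.5, 32.6, 36.7 and 35.5 CPM in the siErk3 replicates. The siErk3 values lay inside the siNTC range, and the log2 difference of -0.06 was not called (95% interval -0.21 to 0.09). Per kb of exon, Tgfb1 made up 57.8% to 62.5% of the summed level of the TGF-β ligand genes in siNTC libraries and 57.5% to 66.5% in siErk3 libraries. The share of Tgfb2 went from 31.8%–33.0% to 19.3%–24.1%, and that of Tgfb3 from 4.51%–9.36% to 14.2%–18.4%. The ratio of Tgfb3 to Tgfb2 per kb was 0.136 to 0.285 in siNTC libraries and 0.734 to 0.810 in siErk3 libraries. Tgfb2 lay above Tgfb3 per kb in every library.

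Activins and inhibins are dimers built on β subunits, of which Inhba encodes βA and Inhbb βB. Inhbb, on chromosome 1 (119415465-119422248), stood at 42.2, 51.7, 49.8 and 49.3 CPM in the siNTC replicates and at 31.1, 30.01, 28.5 and 30.8 CPM in the siErk3 replicates. All siErk3 libraries lay below all siNTC libraries, and Inhbb fell by 0.68 on the log2 scale (SE 0.07, edgeR adjusted p = 1.95e-08). Inhba, on chromosome 13 (16011851-16031621), was counted rarely, with 8, 11, 5 and 5 counts in the siNTC replicates and 18, 19, 10 and 14 counts in the siErk3 replicates. Replicate 2 of siNTC reached above replicate 3 of siErk3, so the groups overlapped. Inhba reached 1 CPM in 1 of 4 siNTC libraries and is in the table only with the help of siErk3 libraries. Inhba rose by 0.97 on the log2 scale (SE 0.32, edgeR adjusted p = 0.0157), and the call was lost without siNTC replicate 3, without siNTC replicate 4 or without siErk3 replicate 2, as it was with DESeq2 (adjusted p from 0.00685 to 0.0565 over 16 alternatives). Per kb, Inhbb made up at least 98.6% of the sum of both subunit genes in siNTC libraries and at least 96.0% in siErk3 libraries.

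Gdf11, a ligand close to myostatin that acts through activin receptors, lies on chromosome 10 (128882295-128891718). It gave 14, 8, 13 and 8 counts in the siNTC replicates and 31, 33, 43 and 37 counts in the siErk3 replicates. With no overlap between groups, Gdf11 rose by 1.64 on the log2 scale, from 1.12 ± 0.334 to 3.52 ± 0.518 CPM (SD, n = 4 each; SE of the log2 fold change 0.23, edgeR adjusted p = 3.31e-06). Gdf11 reached 1 CPM in 2 of 4 siNTC libraries and in all siErk3 libraries. It is in the table only with the help of the group where it is high, so its separation carries that limit. Gdf11 stayed one of the weakly expressed ligand genes, at 0.868 CPM per kb in siErk3 libraries.

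Gdf5, a BMP-type ligand known from joint development, stood at 27.5, 27.4, 29.2 and 27.8 CPM in the siNTC replicates and at 15.1, 19.0, 17.6 and 14.5 CPM in the siErk3 replicates. The groups did not overlap, and Gdf5 fell by 0.76 on the log2 scale (SE 0.09, edgeR adjusted p = 1.02e-07). Of the exon bases of Gdf5 on chromosome 2 (155941023-155945367), 40.3% are shared with Gm15557 on the opposite strand, which was lower by a similar amount (log2 -0.68), and the library kit does not separate the strands. Reads of the 2 genes therefore cannot be told apart over that stretch, and the value and level of Gdf5 are uncertain. Gdf1, a partner of Nodal, was at 3.13 ± 0.511 CPM and 3.33 ± 0.686 CPM (SD, n = 4 each) and was not called (log2 difference 0.09, 95% interval -0.31 to 0.49), and all its exon bases lie within exons of Cers1.

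**Figure D2:**
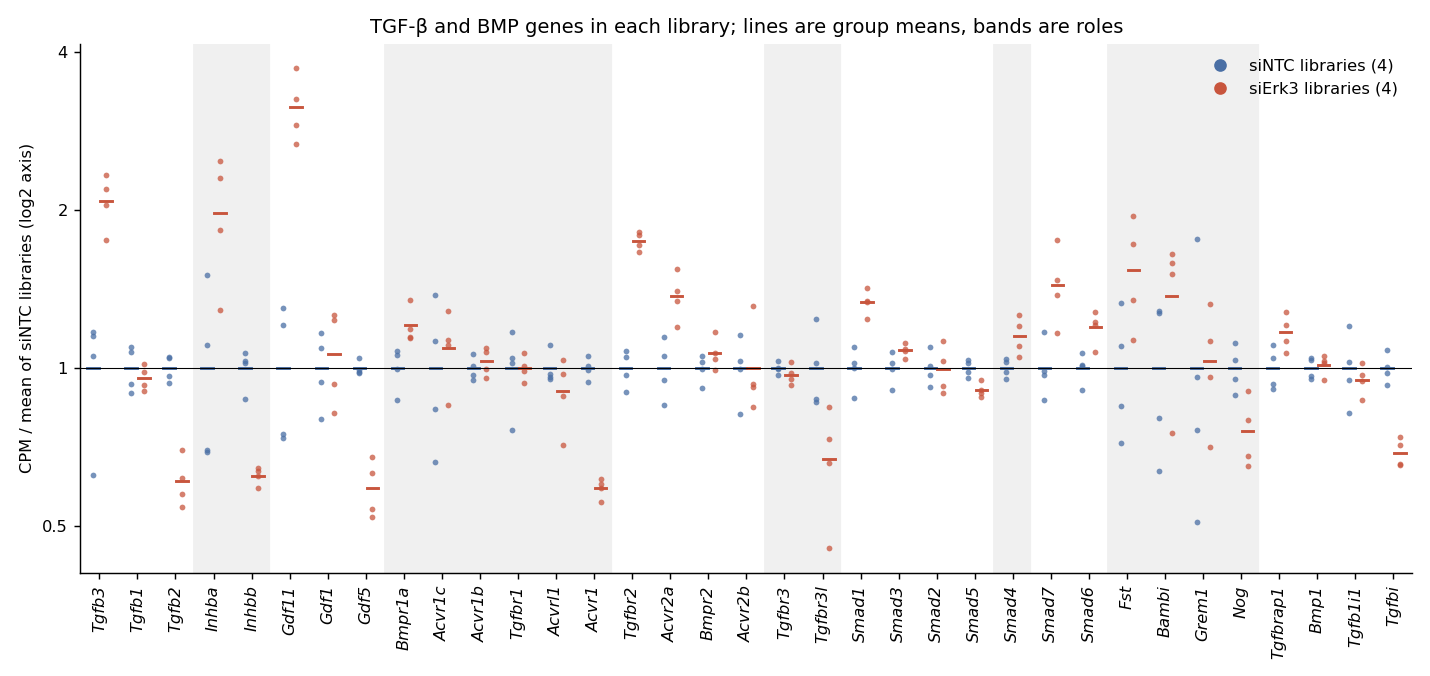
CPM of each of the 35 genes in each library divided by the mean of its 4 siNTC libraries (log2 axis), siNTC blue and siErk3 red, with short lines for group means and shaded bands for roles. The siErk3 libraries of Gdf11, Tgfb3 and Tgfbr2 all lie above 1 and those of Acvr1, Gdf5, Tgfb2 and Inhbb all lie below it, while the points of Fst, Bambi and Grem1 are spread widely in both groups.

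The type I receptor genes differed from one another in their response. Acvr1, a BMP type I receptor on chromosome 2 (58388644-58567157), stood at 39.6, 36.9, 41.3 and 38.8 CPM in the siNTC replicates and at 23.6, 23.1, 24.0 and 21.8 CPM in the siErk3 replicates. Its groups were far apart, and Acvr1 fell by 0.76 on the log2 scale (SE 0.07, edgeR adjusted p = 2.42e-09). Bmpr1a, another BMP type I receptor and the most abundant receptor gene per kb, stood at 135, 133, 109 and 124.9 CPM in the siNTC replicates and at 144, 149, 144 and 169 CPM in the siErk3 replicates. All siErk3 libraries lay above the siNTC libraries, and Bmpr1a rose by 0.27 (SE 0.07, edgeR adjusted p = 0.00164). The ratio of Bmpr1a to Acvr1 per kb went from 2.01–2.74 to 4.57–5.91.

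The TGF-β and activin type I receptors were not called. Tgfbr1, which pairs with Tgfbr2, averaged 65.0 ± 11.1 CPM with siNTC and 65.1 ± 3.52 CPM with siErk3 (SD, n = 4 each), with a 95% interval of the log2 difference of -0.18 to 0.18. Acvr1b, the main activin type I receptor, was at 59.4 ± 3.01 and 61.2 ± 3.81 CPM, with an interval of -0.08 to 0.17. Acvr1c, a type I receptor known from mature fat, was per kb the least abundant of the type I receptor genes, at 1.74 ± 0.549 and 1.91 ± 0.313 CPM, and its interval was wide (-0.39 to 0.64). Acvrl1, best known from endothelium, was at 6.67 ± 0.486 and 6.03 ± 0.938 CPM, with an interval of -0.43 to 0.14. In each of these 4 genes the libraries of both groups overlapped.

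Among the type II receptor genes 2 were higher and none was called lower. Tgfbr2, which binds TGF-β and starts the signal, lies on chromosome 9 (116084293-116175360). It stood at 57.2, 66.6, 68.6 and 61.8 CPM in the siNTC replicates and at 109, 114, 116 and 106 CPM in the siErk3 replicates. The lowest siErk3 library was far above the highest siNTC library, and Tgfbr2 rose 1.75-fold (log2 0.81, SE 0.06, edgeR adjusted p = 9.56e-11). Acvr2a, a type II receptor for activins and several BMPs, stood at 34.5, 37.4, 27.8 and 30.9 CPM in the siNTC replicates and at 39.0, 45.7, 43.8 and 50.3 CPM in the siErk3 replicates. The groups were close but did not overlap, and Acvr2a rose by 0.45 on the log2 scale (SE 0.08, edgeR adjusted p = 1.09e-04). Of its exon bases 7.84% are shared with Orc4 on the opposite strand, whose log2 fold change was 0.36.

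Bmpr2, the BMP type II receptor, stood at 84.4, 86.5, 75.3 and 81.7 CPM in the siNTC replicates and at 81.3, 85.4, 87.5 and 96.1 CPM in the siErk3 replicates. The groups overlapped, and the log2 difference of 0.10 was not called (95% interval -0.03 to 0.22). Acvr2b, the close relative of Acvr2a, was at 7.51 ± 1.04 and 7.53 ± 1.58 CPM (SD, n = 4 each) and was not called (log2 difference 0.01, 95% interval -0.30 to 0.31). Per kb, Tgfbr2 was the most abundant type II receptor gene in both groups. Its share in the sum of the type II receptor genes went from 36.2%–42.6% to 44.8%–49.6%, and that of Bmpr2 from 21.3%–24.3% to 16.6%–18.5%.

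The co-receptor Tgfbr3 (betaglycan), which presents TGF-β to its receptors, stood at 119, 122, 115 and 118 CPM in the siNTC replicates and at 122, 113, 110 and 116 CPM in the siErk3 replicates. Its groups overlapped, and the 95% interval of the log2 difference was -0.15 to 0.07. Tgfbr3l, a betaglycan-like gene known as an inhibin co-receptor of the pituitary, gave 38, 55, 45 and 38 counts in the siNTC replicates and 40, 34, 31 and 21 counts in the siErk3 replicates. After scaling the groups just missed each other, and Tgfbr3l fell by 0.57 on the log2 scale (SE 0.19, edgeR adjusted p = 0.0159). Leaving out siNTC replicate 2 (adjusted p = 0.0705) or siErk3 replicate 4 (0.0701) ended that call, within a range of 0.00722 to 0.0705 over 16 alternatives, and 52.2% of the exon bases are shared with Gm49320 (log2 fold change -0.09), so the value is uncertain.

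Ratios between genes of the same library show the unequal changes without any scaling between libraries. They were chosen after the values were seen and are given without a test. Tgfbr2 over Tgfbr1 per kb was 0.687 to 1.10 in siNTC libraries and 1.22 to 1.52 in siErk3 libraries. Tgfbr2 over Acvr1 was 0.852 to 1.07 and 2.73 to 2.91. Thus in siNTC libraries Tgfbr2 and Acvr1 had about the same level per kb, and in siErk3 libraries Tgfbr2 was above Acvr1 in each library. This does not hold for Bmpr1a, the more abundant BMP type I receptor gene. Bmpr1a averaged 19.8 CPM per kb with siNTC and 23.9 with siErk3, beside 7.76 and 13.6 for Tgfbr2.

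**Figure D3:**
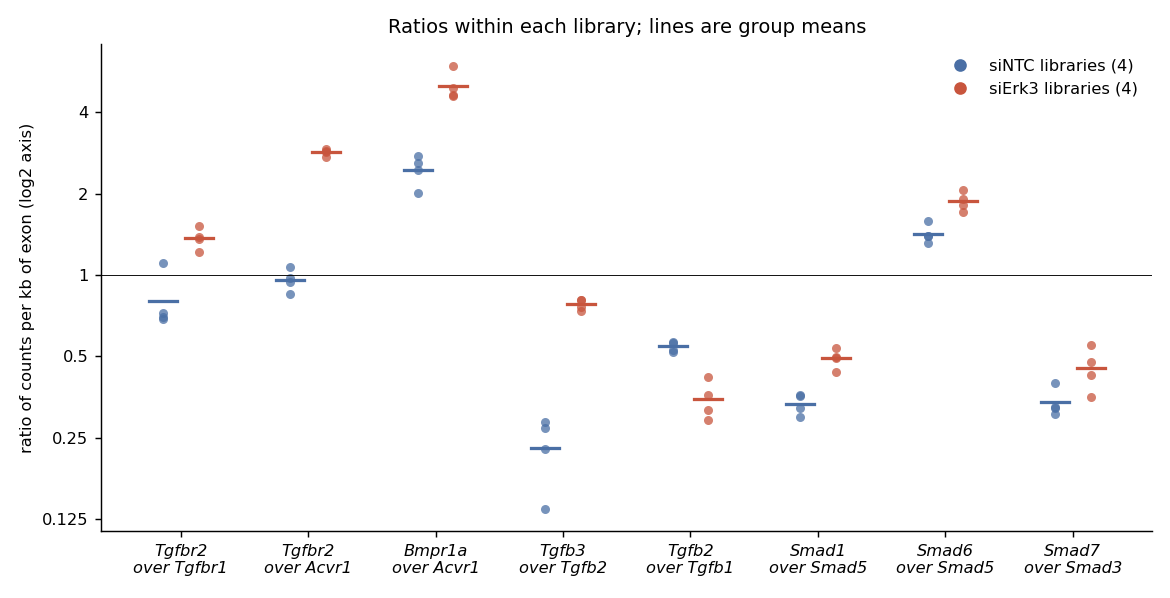
Ratios of counts per kb of exon between pairs of genes within each library (log2 axis), siNTC blue and siErk3 red, with lines at the group means. The pairs were chosen after the values were seen, so the separation of the groups is not a test. Tgfbr2 over Acvr1 goes from a mean of 0.959 to 2.84, while Smad7 over Smad3 overlaps.

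Log2 fold changes of the SMADs lay between -0.14 and 0.53, with a median absolute value of 0.21, beside 0.74 for the 8 ligand genes. Of the receptor-regulated SMADs, Smad1, which carries BMP signals, rose by 0.42 on the log2 scale, from 18.7 ± 1.73 to 24.9 ± 1.36 CPM (SD, n = 4 each; SE of the log2 fold change 0.08, edgeR adjusted p = 1.99e-04). Its siErk3 libraries, at 23.2 to 26.5 CPM, lay above its siNTC libraries, at 16.4 to 20.5 CPM. Smad5, which carries the same signals and was per kb the most abundant receptor-regulated SMAD, stood at 64.9, 68.5, 63.4 and 67.7 CPM in the siNTC replicates and at 58.2, 60.0, 62.8 and 59.3 CPM in the siErk3 replicates. The groups did not overlap, by a margin smaller than the spread within either, and Smad5 fell by 0.14 (SE 0.05, edgeR adjusted p = 0.0403). The Smad5 call held in 9 of 17 alternatives (adjusted p from 0.00305 to 0.465): it was lost with library sizes only, with DESeq2 and without any of siNTC replicates 1, 2 and 4 or siErk3 replicates 1, 2 and 4. Per kb, Smad1 over Smad5 went from 0.299–0.359 to 0.437–0.539.

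Smad2 and Smad3, which carry TGF-β and activin signals, were not called. Smad2 was at 44.0 ± 3.34 and 43.8 ± 4.66 CPM (SD, n = 4 each), with a 95% interval of the log2 difference of -0.16 to 0.15. Smad3 was at 32.6 ± 2.24 and 35.3 ± 0.979 CPM, with an interval of -0.03 to 0.25, and was called only with library sizes alone (adjusted p = 0.0171, others up to 0.626). Smad4, the partner shared by both branches, stood at 41.8, 44.2, 43.6 and 40.6 CPM in the siNTC replicates and at 51.1, 53.7, 46.8 and 44.7 CPM in the siErk3 replicates. The groups did not overlap, and Smad4 rose by 0.21 on the log2 scale (SE 0.06, edgeR adjusted p = 0.0114), a call lost with upper-quartile factors (adjusted p = 0.0877) and without siErk3 replicate 2 (0.0585) and made in 15 of 17 alternatives (0.000807 to 0.0877).

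Both inhibitory SMADs rose. Smad7, which blocks TGF-β receptors and is itself a target of the pathway, gave 75, 86, 101 and 83 counts in the siNTC replicates and 128, 160, 108 and 134 counts in the siErk3 replicates. After scaling, siErk3 replicate 3 (10.51 CPM) lay just under siNTC replicate 3 (10.54 CPM), so the groups met at their edges. Smad7 rose by 0.53 on the log2 scale (SE 0.13, edgeR adjusted p = 0.00126). Smad6, which blocks BMP signals, stood at 36.9, 41.2, 43.3 and 40.9 CPM in the siNTC replicates and at 51.9, 49.6, 49.1 and 43.6 CPM in the siErk3 replicates. The lowest siErk3 library was just above the highest siNTC library, and Smad6 rose by 0.26 (SE 0.07, edgeR adjusted p = 0.00249). Per kb Smad6 was the most abundant SMAD in both groups, at 24.9% to 27.1% of the summed SMAD level in siNTC and 26.6% to 28.8% in siErk3 libraries.

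Of the antagonists, Nog (noggin, which traps BMPs) was per kb the most abundant and the only gene called. It stood at 12.7, 10.9, 10.1 and 11.8 CPM in the siNTC replicates and at 7.73, 7.40, 9.05 and 10.3 CPM in the siErk3 replicates. Replicate 4 of siErk3 lay above replicate 3 of siNTC, and Nog fell by 0.40 on the log2 scale (SE 0.12, edgeR adjusted p = 0.00836). Fst (follistatin, which traps activins) gave 11, 6, 7 and 9 counts in the siNTC replicates and 12, 17, 10 and 15 counts in the siErk3 replicates. The groups overlapped, and the log2 difference of 0.61 was not called (95% interval -0.02 to 1.24, edgeR adjusted p = 0.1002).

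Bambi, a receptor-like gene without a kinase domain that dampens the signal, was at 1.801 ± 0.596 and 2.48 ± 0.756 CPM (SD, n = 4 each). One siErk3 library, replicate 1 at 1.35 CPM, lay far below the other siErk3 libraries at 2.73 to 2.97 CPM. The log2 difference of 0.46 was not called with all libraries (95% interval -0.09 to 1.01, edgeR adjusted p = 0.165) and was called without that replicate (log2 0.66, adjusted p = 0.0317), the sole call in 16 alternatives (0.0317 to 0.405). Grem1 (gremlin, a BMP trap) was at 1.64 ± 0.889 and 1.69 ± 0.430 CPM, with a 95% interval of -0.60 to 0.68.

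The 4 genes related by name have other roles. Tgfbi, a matrix protein gene, stood at 18.0, 17.6, 19.4 and 16.6 CPM in the siNTC replicates and at 13.2, 11.8, 11.7 and 12.8 CPM in the siErk3 replicates. The groups did not overlap, and Tgfbi fell by 0.53 on the log2 scale (SE 0.09, edgeR adjusted p = 3.04e-05). Tgfbrap1, whose protein binds TGF-β receptors and takes part in endosome tethering, stood at 32.1, 31.4, 38.0 and 35.9 CPM in the siNTC replicates and at 38.7, 36.7, 41.6 and 44.0 CPM in the siErk3 replicates. With groups that overlapped, Tgfbrap1 rose by 0.23 (SE 0.07, edgeR adjusted p = 0.0136), and the call was lost with upper-quartile factors and without siNTC replicate 1, siNTC replicate 2 or siErk3 replicate 4 (0.00098 to 0.0795 over 17 alternatives). Bmp1, a procollagen protease and not a BMP, was at 32.2 ± 1.49 and 32.7 ± 1.48 CPM (SD, n = 4 each; interval -0.12 to 0.16), and Tgfb1i1, a focal adhesion protein gene, at 10.1 ± 1.62 and 9.64 ± 0.640 CPM (interval -0.32 to 0.17).

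Per kb of exon, levels of the 35 genes ran from 0.118 to 19.8 CPM per kb in siNTC libraries. There Bmpr1a (19.8 ± 1.84 CPM per kb) and Tgfbr3 (18.1 ± 0.457) led, and did not differ beyond their spread. Acvr1b (13.5 ± 0.681) and Smad6 (12.7 ± 0.840) followed, again within the spread, and then Gdf5 (12.1 ± 0.369), Smad4 (11.5 ± 0.449) and Inhbb (11.3 ± 0.978), of which Smad4 and Inhbb lay within their spread. The lowest levels were those of Fst (0.188 ± 0.0509), Acvr1c (0.188 ± 0.0591) and Inhba (0.118 ± 0.0459), which overlapped. In siErk3 libraries Tgfbr2, at 13.6 ± 0.544 CPM per kb, had a level like that of Acvr1b (13.9 ± 0.863), whereas in siNTC libraries it had stood at 7.76 ± 0.625, like Acvr1 (8.11 ± 0.382). Gdf5 (7.13 ± 0.902) and Inhbb (7.07 ± 0.270) were then at the level of Tgfb1 (6.86 ± 0.370).

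**Figure D4:**
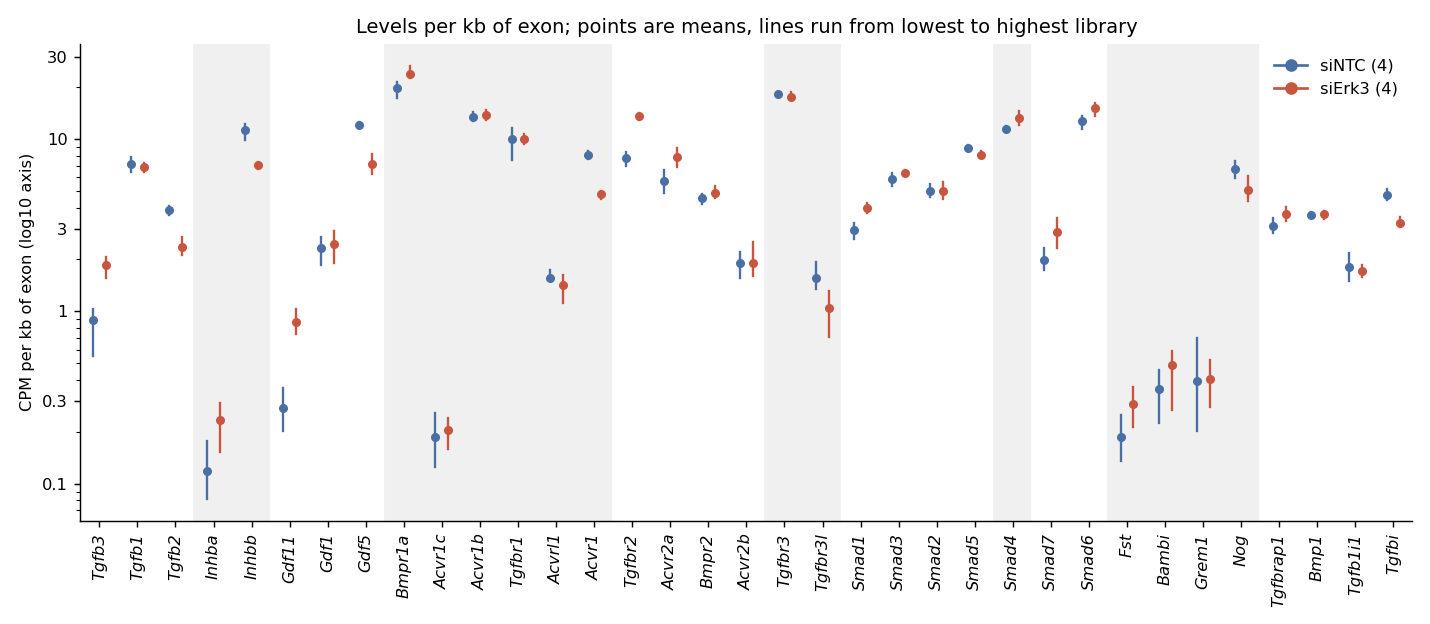
Level of each gene per kb of exon (CPM per kb, log10 axis) in siNTC (blue) and siErk3 (red) libraries, grouped by role; points are means of 4 libraries and lines run from the lowest to the highest library. Bmpr1a and Tgfbr3 are highest, Inhba, Fst and Acvr1c lowest, and Tgfbr2 moves from 7.76 to 13.6.

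Some of the genes are neighbours, with 4 pairs less than 500 kb apart. Acvr1c and Acvr1 lie 30.7 kb apart on chromosome 2, with Acvr1 lower and Acvr1c not called. Tgfbi and Smad5 lie 63.4 kb apart on chromosome 13, and both were lower. Smad3 (not called) and Smad6 (higher) lie 195 kb apart on chromosome 9, and Acvrl1 and Acvr1b, neither called, lie 28.7 kb apart on chromosome 15.

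Outside the cell, further genes of the pathway store, free or trap the ligands. Of 40 such extracellular regulators 23 were tested, and 5 were higher, 11 lower and 7 not called, with a median log2 fold change of -0.19. The called share was 69.6%, beside 48.7% of all genes, with 21.7% higher, beside 24.9%, and 47.8% lower, beside 23.8%. The list was chosen with earlier results of these data known, so these contrasts are not a test. Genes of latent TGF-β binding proteins, which anchor TGF-β in the matrix, were lower: Ltbp4 by -1.23 on the log2 scale, Ltbp2 by -0.95 and Ltbp3 by -0.57 (edgeR adjusted p = 1.14e-04, 4.48e-12 and 1.29e-09). Dcn (decorin, a matrix proteoglycan that binds TGF-β, log2 -0.87) and Inha, which encodes the inhibin α subunit (-0.73), were lower as well. Thbs1 (thrombospondin, which can activate latent TGF-β) stood at 29.98 to 34.6 CPM in siNTC and 84.6 to 90.02 CPM in siErk3 libraries and rose by 1.46 (SE 0.06, edgeR adjusted p = 9.11e-16). Lrrc32, which tethers latent TGF-β to the cell surface, rose by 1.93 from a low level (0.679 ± 0.203 to 2.62 ± 0.992 CPM; SD, n = 4 each), Rgmb, a BMP co-receptor, by 0.40 and the protease gene Furin by 0.22. The fifth gene called higher was Eng, a TGF-β co-receptor, with 0.495 ± 0.0526 and 1.42 ± 0.190 CPM, named here after its values were seen. Lrrc32 and Eng reached 1 CPM in 0 of 4 siNTC libraries and in all 4 siErk3 libraries, so both are in the table through the group where they are high, and they had to differ; without them 3 genes were higher. Ltbp4 reached it in 3 of 4 siErk3 libraries and in all siNTC libraries. Bgn (-0.02) and Chrdl1 (0.00) had the highest CPM of the genes not called.

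Inside the cell, 30 of 31 regulators were tested, and 9 were higher, 7 lower and 14 not called, with a median of 0.06. The called share of 53.3% and the lower share of 23.3% lay close to those of all genes (48.7% and 23.8%). Tgif1, a corepressor of SMAD2 and SMAD3, stood at 14.2 to 17.9 CPM in siNTC and 35.2 to 37.9 CPM in siErk3 libraries and rose by 1.14 on the log2 scale (SE 0.08, edgeR adjusted p = 2.35e-11). Ski, another SMAD corepressor, went the other way, from 78.6–80.4 to 51.5–54.2 CPM (log2 -0.59, SE 0.05, edgeR adjusted p = 1.94e-09). The adaptor gene Dab2 rose by 1.48, Fkbp1a, whose protein holds type I receptors inactive, by 0.47, the ubiquitin ligase gene Nedd4l by 0.42, and Snx6 and Hgs, both of endosomal sorting, by 0.42 and 0.35. Lower were the kinase gene Map3k7 (TAK1, which relays signals that bypass SMADs; -0.70), Pmepa1 (-0.38), the ubiquitin ligase gene Smurf1 (-0.26), the phosphatase gene Ppm1a (-0.25) and the coactivator gene Crebbp (-0.19). Of the genes not called, Usp9x (0.00) and Strap (0.09) had the highest CPM.

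Genes that TGF-β or activin is known to raise moved in both directions. Of 27 listed, 24 were tested, and 13 were higher, 6 lower and 5 not called, with a median of 0.27. Among the 13, the Acta2 call held in 7 of 17 alternatives, the Cdkn1a call in 8 of 17 and the Loxl2 call in 9 of 16. Called shares of 79.2% here and 90.9% of the BMP targets stand beside 48.7% of all genes. These lists were chosen with earlier results of these data known, so these contrasts are not a test. The shares include Timp1, Id2 and Gata3, which were counted only with the help of siErk3 libraries. They also include Id1, whose call was lost under some alternatives. Ccn1, a matricellular gene, stood at 4.00 to 5.68 CPM in siNTC and 22.7 to 28.0 CPM in siErk3 libraries and rose by 2.40 on the log2 scale (SE 0.11, edgeR adjusted p = 1.54e-14). Junb, an AP-1 gene, rose by 1.96, the protease inhibitor gene Timp1 by 1.72, Tgif1 (which is also among the intracellular regulators) by 1.14, Tpm1, a tropomyosin gene, by 1.06 and the cell cycle inhibitor gene Cdkn2b by 0.76. The matrix genes Postn (-0.96), Ltbp2 (-0.95), Col1a1 (-0.66), Col3a1 (-0.30) and Fn1 (-0.24) fell, as did Pmepa1 (-0.38), a feedback inhibitor that is also in the list of intracellular regulators. Col1a2 (0.13) and Skil (-0.11) were not called and had the highest CPM of those. Timp1 reached 1 CPM in 2 of 4 siNTC libraries and is in the table through siErk3 libraries. Many of these genes also answer to other pathways.

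Of 20 genes known to be raised by BMPs, 12 were counted and 11 tested, and 8 were higher, 2 lower and 1, Hes1, not called, with a median of 0.81. The higher share was 72.7%, beside 24.9% of all genes, and the lower share 18.2%, beside 23.8%. With the list chosen as above, these contrasts are not a test. Among the 8, the Gata3 call held in 11 of 16 alternatives. Atoh8, a helix-loop-helix gene, stood at 3.75, 4.86, 4.17 and 3.89 CPM in the siNTC replicates and at 14.98, 17.2, 16.0 and 15.3 CPM in the siErk3 replicates. Its groups were far apart (log2 1.92, SE 0.12, edgeR adjusted p = 2.58e-12). The Id genes, the best known BMP targets, did not move together. Id3 rose from 26.2–28.7 to 58.9–63.9 CPM (log2 1.16, SE 0.06, edgeR adjusted p = 1.20e-13) and Id2 by 0.90 from 1.35 ± 0.344 CPM (SD, n = 4; SE 0.25, edgeR adjusted p = 0.00446). Id1, with the highest CPM of the Id genes in siNTC libraries, went from 45.5–49.8 to 42.0–44.3 CPM and was called lower by 0.15 (SE 0.06, edgeR adjusted p = 0.0371), but the Id1 call held in 9 of 17 alternatives (adjusted p from 0.00299 to 0.403): it was lost with library sizes only, with DESeq2 and without any of siNTC replicates 1, 3 and 4 or siErk3 replicates 1, 2 and 3. Id4 fell by 1.23 (SE 0.21, edgeR adjusted p = 3.96e-05), from 4.33 ± 0.923 to 1.84 ± 0.438 CPM (SD, n = 4 each). Id2 reached 1 CPM in 3 of 4 siNTC libraries, as did Gata3, another of the genes called higher, so both are in the table through siErk3 libraries, and without them 6 were higher. Spp1 (osteopontin) rose by 0.99, the phosphatase gene Alpl by 0.87 and the homeobox gene Msx1 by 0.81.

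**Figure D5:**
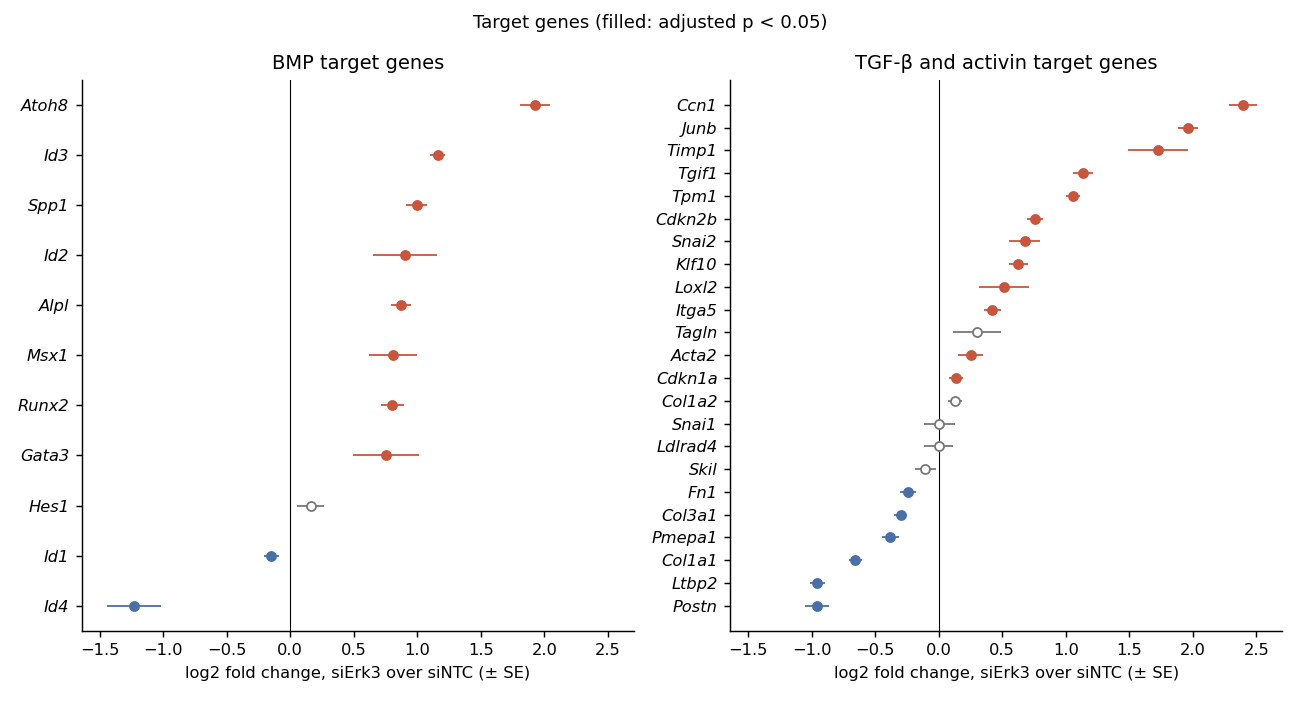
Log2 fold change (siErk3 over siNTC, ± SE derived from the edgeR F statistic) of target genes that were tested. The 11 BMP target genes are on the left and 23 of the 24 TGF-β and activin target genes on the right. Filled points have an adjusted p under 0.05. Atoh8, at 1.92, and Ccn1, at 2.40, are the highest of their lists, and the matrix genes Postn and Ltbp2 are the lowest on the right.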

How the data were processed

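RNA sequencing of poly(A) RNA covered 8 libraries of 3T3-L1 adipocytes, 4 transfected with siErk3 and 4 with siNTC, and siErk3 against siNTC was the comparison made. The authors deposited raw counts of each gene, and separately their own edgeR comparison (log2 fold changes, average log2 CPM, p-values and adjusted p-values), which was not used. For the build mm10, the submitters' processing notes list Bowtie2, FastQC, bcl2fastq and edgeR. How reads were assigned to genes (program, annotation, strand) is not given in the sources used here. Every gene in the table reached 1.01 CPM in at least 4 libraries, so weakly expressed genes had been removed before deposit. The library kit does not mark the strand, so reads from overlapping genes on opposite strands cannot be told apart, and whether such reads were counted for both genes or dropped is not known.

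Counts were tested with edgeR 4.0.16 (R 4.3.3) after filterByExpr at default settings (minimum count 10, minimum total 15), using TMM factors, glmQLFit and glmQLFTest with no covariate, and Benjamini-Hochberg adjustment over the 17972 genes left. A gene was called at an adjusted p under 0.05. The script was tested on simulated data. CPM are counts divided by TMM-scaled library sizes, and CPM per kb divide by the exon length of GENCODE M21, in which 18050 gene IDs and all 35 genes described here were found. The common biological coefficient of variation was 6.08%. Library totals were within 1.009-fold of each other, so depth hardly differed, and precision at low counts is limited by counting error. Every pair of replicates differed by more than sampling noise (chi-square per gene 1.97 to 8.30).

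The members and lists were chosen with earlier results of these data known. Every member is named by role, and each library's value is given for called members with an absolute log2 fold change of at least 0.5, for the most abundant gene of each role and for genes with under 10 counts on average in a group. Of the other lists, called genes averaging 1 CPM or more were named by size of change, at most 6 per direction, with at most 2 uncalled genes; some genes of these lists are counted but not reported here by name. Alternatives were RLE and upper-quartile factors, library sizes only, no filter, 5 CPM in at least 4 libraries, DESeq2 1.42.0, edgeR's exact test, limma-voom (limma 3.58.1), the replicate number as a block, and each library left out in turn.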

Additional observations from a re-analysis of the deposited data

Results flagged for a closer look

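Each gene's 4 libraries of a group were searched for a library far from the other 3, in 70 groups of 4, of which chance alone would mark about 3.5, and 2 were marked. Acvrl1 stood at 7.39 CPM in siNTC replicate 1, against 6.37 to 6.51 CPM in the other siNTC libraries. Bambi stood at 1.35 CPM in siErk3 replicate 1, against 2.73 to 2.97 CPM in the other siErk3 libraries, and its call without that replicate is given with the antagonists.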

How the results depend on the processing

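Of the 19 called genes of the family, 14 were called in the same direction under every alternative that gave them a value, and 5 (Inhba, Smad4, Smad5, Tgfbr3l and Tgfbrap1) lost the call under at least 1. Of the 16 uncalled genes 3 were called under some alternative: Bambi, and Bmpr2 and Smad3 with library sizes only (Bmpr2 log2 0.18, adjusted p = 0.0161). The filter of 5 CPM left 27 of the 35 genes. Counts of BMP target genes called lower (Id1 and Id4, 2) came to 1 with library sizes only, with the 5 CPM filter and with DESeq2, and to 1 to 2 with a library left out, with Id1 lost in 6 of those 8 runs. With the 5 CPM filter, which keeps fewer genes, 5 BMP target genes (of 8) and 3 extracellular regulators (of 5) were called higher. Counts of TGF-β and activin target genes called higher (13) came to 10 with upper-quartile factors, 11 with DESeq2 and 14 with library sizes only. Signs turned for uncalled genes near 0. With upper-quartile factors these were Acvr1b (-0.0271), Acvr2b (-0.0645), Bmp1 (-0.0479), Grem1 (-0.029) and Tgfbr1 (-0.0686), and with library sizes only Smad2 (0.0794), Tgfb1 (0.0266), Tgfb1i1 (0.014) and Tgfbr3 (0.0452). Tgfbr1 also turned with RLE factors (-0.0023), DESeq2 (-0.0022) and the 5 CPM filter (-0.009), and Acvr2b with that filter (-0.0049) and limma-voom (-0.0057). With a library left out, log2 fold changes ran from -0.15 to 0.081 for Acvr2b, -0.0043 to 0.20 for Gdf1, -0.18 to 0.46 for Grem1, -0.16 to 0.0288 for Tgfb1i1, -0.11 to 0.0863 for Tgfbr1, -0.0239 to 0.32 for Acvr1c and -0.0728 to 0.042 for Smad2. Upper-quartile factors moved the median of all genes by -0.07 and library sizes only by 0.09. Libraries with the same replicate number did not deviate together (r = 0.02, 0.01, 0.09 and -0.01), so the numbers do not pair them. The replicate block gave 11 members higher and 8 lower and changed no call of the 35 genes. The cause of these differences was not tested. Depth limits Inhba, Fst, Gdf1, Gdf11, Grem1, Bambi and Acvr1c, each with under 50 counts in every library.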
